A study of Mus musculus with 10 samples.

Results

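The comparison described here set GS cells, the established long-term cultures of mouse spermatogonial stem cells, against cells of the same kind after 2 weeks in culture. It compared 4 of the 10 RNA-seq libraries of the study, 2 of GS cells and 2 of week 2, and left the week 3 libraries out of the comparison. All 4 libraries came from the DBA/2 strain. Per the labels, the week 2 cells began as adult testis cells that had been selected magnetically on the surface protein CD9, and both groups grew in medium to which FGF2, GDNF and a low level of fetal bovine serum had been added. The other groups were the selected cells at weeks 0, 1 and 3, again with 2 libraries each. Not given in the sources used here were the number of GS cell lines, their passage, the age of their donors and any feeder cells. The labels do not say whether replicates were separate animals or cultures. The p-values therefore cover only the spread between replicate libraries, estimated jointly over all 10 libraries of the study. That spread may be technical. Of 21969 genes in the deposited matrix, 12709 reached FPKM 1 (fragments per kilobase of transcript per 1e6 mapped fragments) in at least 2 of the 4 libraries and were analysed as log2(FPKM + 1).

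Spermatogonial stem cells divide to renew themselves and to feed sperm formation throughout adult life. Their renewal depends on GDNF, which binds the receptor pair GFRA1 and RET, and FGF2 acts beside it through the ERK pathway. Freshly plated testis cells carry along somatic cells of the testis, and the germ cells grow out as clumps that can be passaged for long periods as GS cells.

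Depth was estimated from the steps of the FPKM values at 15.49 and 13.43 M reads (M, 1e6) at week 2 and 21.05 and 18.8 M in GS cells. How the values were normalized is not given, so the reads sequenced may differ. By this estimate an FPKM of 1 stood for 26.9 to 42.1 reads of a transcript with 2200 nucleotides. Replicates correlated at r = 0.9909 at week 2 and r = 0.9904 in GS cells across genes, which are not independent replicates. Germ cell genes were high in all 4 libraries. The RNA-binding protein Dazl ranged from FPKM 420 to 518, and the germ line helicase Ddx4 was at 101 to 129. The fibroblast genes Vim (158 to 176) and Col1a1 (56.5 to 82.4) were also present in all 4. Of 24 genes listed for Sertoli cells, 9 passed the filter and Amh (at most 0.291) and Fshr (listed at 0) did not, whereas Wt1 was at 4.56 and 4.73 at week 2 and at 9.75 and 10.3 in GS cells (log2 difference 0.97, adjusted p = 0.0021). Defining genes of Leydig cells (Cyp17a1, at most 0.269, and Lhcgr, listed at 0) were near or at 0 in every one of these libraries.

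GS cells differed from week 2 in 2963 of 12709 genes (23.3%) at a limma adjusted p under 0.05. Of these, 1576 (12.4% of the genes tested) were higher in GS cells and 1387 (10.9%) were lower. A difference of 2-fold or more was reached by 310 higher genes (2.44%) and 231 lower genes (1.82%), and the median of all genes tested was 0.002 on the log2 scale. After scaling all libraries to a common FPKM sum, 1267 genes were higher and 1837 lower, so the higher share of the called genes moved from 53.2% to 40.8%. With any 1 of the 4 libraries left out, between 1159 genes (without week 2 replicate 2) and 1384 genes (without GS cells replicate 2) were called. The plot of GS cells against week 2 shows both the narrow band of most genes and the few that stood far from it.

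**Figure D1:**
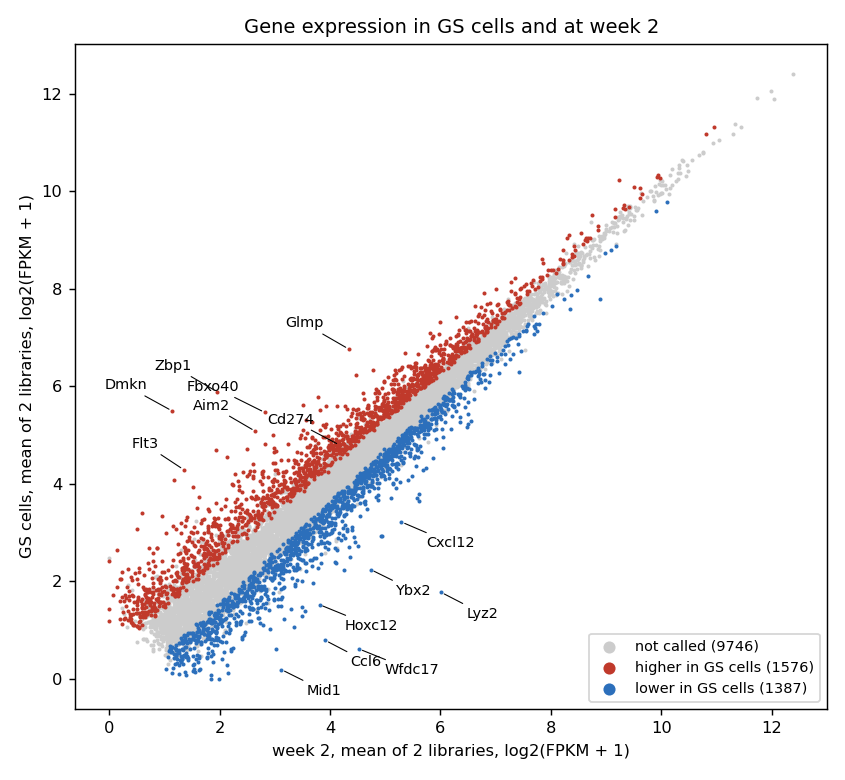
Mean log2(FPKM + 1) of the 2 week 2 libraries (x axis) and of the 2 GS cell libraries (y axis) for the 12709 genes tested, coloured by call. The 1576 higher genes lie above the line of equal values and the 1387 lower genes below it. Called genes with small differences mix with the grey uncalled genes, and Dmkn, Zbp1, Lyz2 and Wfdc17 lie farthest out.

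The 4 largest differences toward GS cells were in Dmkn, Zbp1, Flt3 and Tmem173. Dmkn, an epithelial secreted protein (chr7:30763756-30781063, plus strand), was at FPKM 1.12 and 1.29 at week 2 and at 50.7 and 38.1 in GS cells. The log2 difference was 4.35 ± 0.27 (SE, adjusted p = 0.000101), the largest among the genes whose higher group averaged FPKM 5 or more. Zbp1, a sensor of left-handed nucleic acid that can start cell death (chr2:173206612-173218923, minus strand), was at 3.43 and 2.38 at week 2 and at 62.5 and 54.2 in GS cells, a log2 difference of 3.94 ± 0.20 (adjusted p = 5.87e-05). Both GS cell libraries were thus far above both week 2 libraries for each gene. The receptor tyrosine kinase Flt3 (chr5:147330741-147400489, minus strand) was at 1.52 and 1.58 and at 18.6 and 18.4, a log2 difference of 2.94 ± 0.15 (adjusted p = 5.87e-05). Tmem173, which encodes the adaptor STING, was at 1.08 and 1.45 and at 15.6 and 16.2 (log2 difference 2.91 ± 0.17, adjusted p = 0.0001). Aim2, a sensor of DNA in the cytosol and lower among the 12 largest rises, was at 3.56 and 7.58 and at 34.0 and 31.5 (log2 difference 2.43 ± 0.32, adjusted p = 0.00164).

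The rest of the 12 largest rises had less in common. Osgin1, a gene of the oxidative stress response, stood at FPKM 0.723 and 0.305 at week 2 and at 9.90 and 9.25 in GS cells. Stard13, a lipid transfer domain protein, stood at 3.51 and 2.23 and at 31.2 and 19.7, and Fbxo40, a muscle F-box gene on chromosome 16, at 5.41 and 6.78 and at 37.2 and 49.7. The unconventional myosin Myo1h, Vsig10l and the lysosomal membrane protein Glmp had log2 differences of 2.57, 2.42 and 2.42, and Glmp was the most abundant of them in GS cells (113 and 102). Genes whose libraries overlapped between the groups were left out of this ranking. Alb (albumin) was low in both groups, at 0.176 and 0.0406 and at 4.07 and 6.65, and its adjusted p of 0.0259 rose to 0.0897 without week 2 replicate 1 and to 0.112 without week 2 replicate 2.

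The largest differences toward week 2 were in macrophage genes. Lyz2, the lysozyme of macrophages and neutrophils (chr10:117277331-117282321, minus strand), was at FPKM 65.9 and 61.2 at week 2 and at 3.36 and 1.67 in GS cells, so that its log2 value fell by 4.24 ± 0.25 (SE, adjusted p = 0.000101). The macrophage-secreted Wfdc17 was at 22.6 and 21.5 and at 1.00 and 0.160 (log2 difference -3.92, adjusted p = 0.000891), and the chemokine Ccl6 at 13.97 and 14.16 and at 0.907 and 0.554 (log2 difference -3.13, adjusted p = 0.000101). The platelet and macrophage chemokine Pf4 was at 6.69 and 12.4 and at 1.19 and 1.00. Each of these genes was low in both GS cell libraries, and only genes with a gap between the groups could be ranked.

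Genes of other kinds made up the rest of the 12 largest falls. Mid1, an X-linked ubiquitin ligase of microtubules, was at FPKM 7.33 and 8.03 at week 2 and at 0.133 and 0.141 in GS cells (log2 difference -2.93 ± 0.13, adjusted p = 5.7e-05). Ybx2, a germ cell RNA-binding protein that averaged 3478 in the week 0 cells, was at 26.6 and 24.8 at week 2 and at 2.87 and 4.74 in GS cells. The secreted kinase Pkdcc (-2.21), the microtubule-binding Clip4 (-2.18), the stromal chemokine Cxcl12 (-2.08) and the zinc finger factor Zfp423 (-2.03), all as log2 differences, completed the list together with Hoxc12 and Gm20458. Gm20458 was uneven among replicates (3.27 and 14.4 at week 2, 1.29 and 0.00447 in GS cells), and its adjusted p of 0.0216 rose to 0.119 without week 2 replicate 2 and to 0.135 without GS cells replicate 2. The plot by group sets 12 genes beside their levels at weeks 0, 1 and 3: Zbp1 averaged 0.792, 4.62 and 11.5 there, while Lyz2 averaged 40.0, 59.8 and 77.6.

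**Figure D2:**
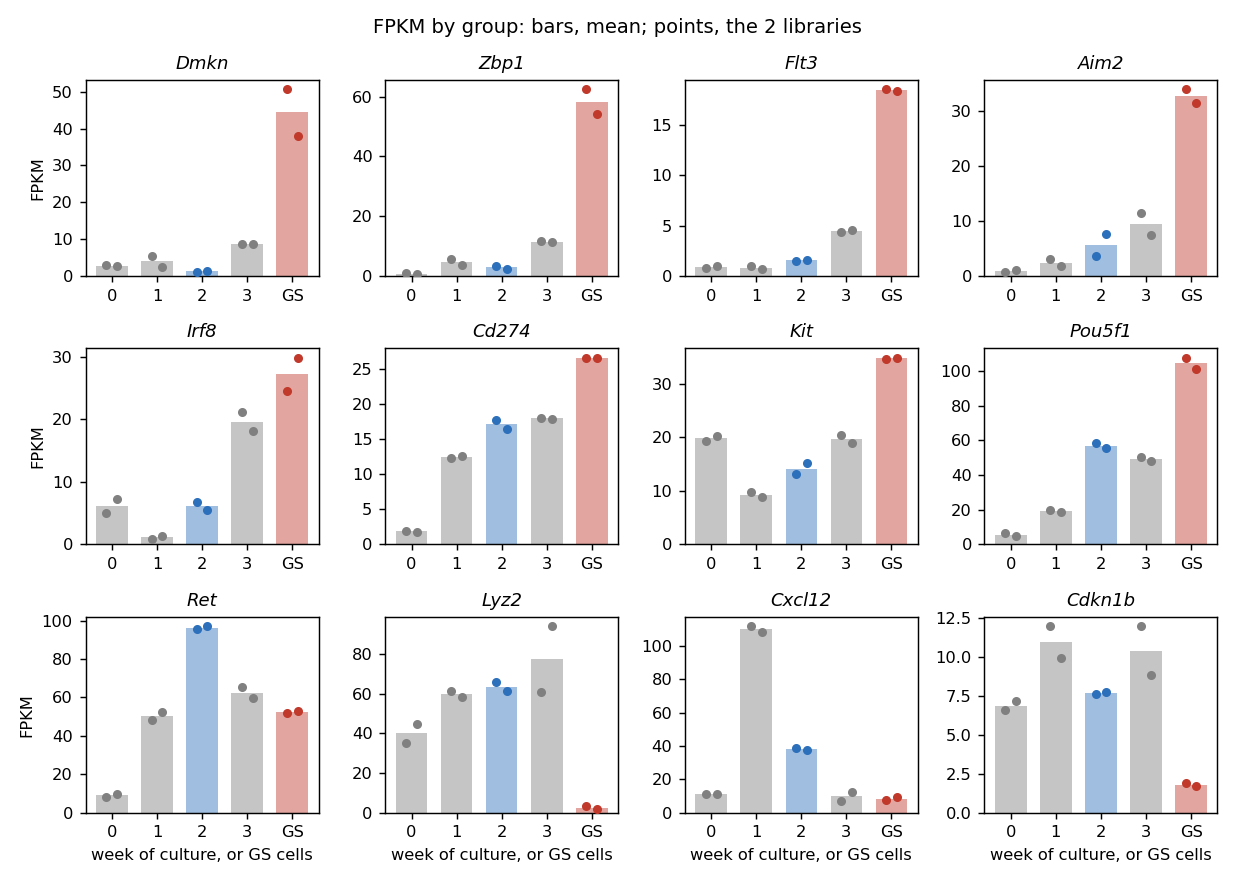
FPKM of 12 genes at weeks 0, 1, 2 and 3 and in GS cells, with bars for the mean of a group and points for its 2 libraries, each panel on its own linear axis from 0. Zbp1, Dmkn, Flt3 and Aim2 stand highest in GS cells, Lyz2 and Cdkn1b lowest there, and Ret highest at week 2.

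Genes of undifferentiated spermatogonia, the stage that holds the stem cells, moved in both directions. Of 34 tested, 13 were higher in GS cells (38.2%, against 12.4% of all genes) and 8 lower (23.5%, against 10.9%), with a median of 0.26 on the log2 scale. These counts were 9 to 11 and 4 to 6 with any 1 of the 4 libraries left out. The summed FPKM of all 35 listed genes was 1839 and 1887 at week 2, against 2267 and 2214 in GS cells. Among the transcription factors, the repressor Zbtb16 (PLZF) was at FPKM 94.7 and 102 at week 2, against 161 and 161 in GS cells, a log2 difference of 0.71 ± 0.11 (adjusted p = 0.00327). Pou5f1 (OCT4) was at 58.4 and 55.4 and at 108 and 101 (0.87, adjusted p = 0.0025). The stem cell marker Pax7 was low throughout, at 0.593 and 0.492 and at 2.54 and 2.60 (1.21, adjusted p = 0.00115). It reached FPKM 1 in GS cells alone, so the filter favours its call, and it is 1 of the 13 higher genes. The translational repressor Nanos3 was at 72.1 and 81.6 and at 178 and 165 (1.15, adjusted p = 0.000244), whereas its relative Nanos2 was at 12.4 and 11.9 and at 10.3 and 8.62, with an adjusted p of 0.0948. The sorting antigen Cd9 was at 105 and 99.0 and at 157 and 156 (0.61, adjusted p = 0.00179). None of the called genes in this group overlapped between the groups of libraries. Of all genes tested, 33.3% were higher and 32.4% lower without overlap.

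The lower members were led by targets of GDNF. Brachyury (T) was at FPKM 18.8 and 20.5 at week 2 and at 5.65 and 3.83 in GS cells, a log2 difference of -1.86 ± 0.22 (adjusted p = 0.00108). Lhx1 was at 47.4 and 57.4 and at 18.3 and 19.8 (-1.41, adjusted p = 0.00057), and Bcl6b at 115 and 121 and at 65.9 and 67.4 (-0.81, adjusted p = 0.00365). Both GS cell libraries were below both week 2 libraries for these 3 transcription factors. Etv5, a GDNF and FGF target on chromosome 16, went the other way (45.2 and 57.5, then 83.0 and 83.3; 0.69, adjusted p = 0.00977), but its adjusted p was 0.0704, 0.0535 and 0.0548 without week 2 replicate 1, GS cells replicate 1 and GS cells replicate 2. The same limit held for Id4, a marker of stem cell potential, at 11.1 and 11.4 and at 16.8 and 18.02 (0.58, adjusted p = 0.00934, and 0.0599, 0.0524 and 0.0601 without week 2 replicate 1, week 2 replicate 2 and GS cells replicate 2).

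The receptors of the growth factors in the medium did not move together. Ret, the signalling subunit of the GDNF receptor, was at FPKM 95.5 and 97.2 at week 2 and at 52.1 and 52.9 in GS cells, a log2 difference of -0.86 ± 0.09 (adjusted p = 0.000804). Gfra1, its ligand-binding partner, was at 51.0 and 50.4 and at 37.0 and 34.8 (-0.49, adjusted p = 0.0176, and 0.0606 to 0.0967 with any 1 of the 4 libraries left out). Both genes had a tight spread within groups and no overlap between them. Among the 17 receptors tested 5 were higher (29.4%, against 12.4% of all genes, and 3 with no filter) and 2 lower (11.8%, against 10.9%), the higher ones including the stem cell factor receptor Kit and the artemin receptor Gfra3 (2.59 and 2.57, then 7.47 and 6.29; 1.13, adjusted p = 0.00784, and 0.0563 without GS cells replicate 1). With any 1 library left out, 1 to 3 receptors were higher and 1 was lower. Of 27 targets and feedback genes of GDNF and FGF, 8 were higher (29.6%, against 12.4% of all genes) and 4 lower (14.8%, against 10.9%). These were 4 to 6 and 4 to 5 with any 1 library left out, and the median was 0.06. The ERK phosphatase Dusp6 was at 97.7 and 98.6 and at 201 and 198.7 (1.02, adjusted p = 0.000729), while cyclin D1 (Ccnd1) was at 59.3 and 56.0 and at 22.4 and 21.9 (-1.34, adjusted p = 0.00262).

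Kit, which marks spermatogonia that have begun to differentiate, was at FPKM 13.1 and 15.1 at week 2 and at 34.6 and 34.9 in GS cells (log2 difference 1.24 ± 0.11, adjusted p = 0.000314). Rarg, the retinoic acid receptor of differentiating spermatogonia, which is also on the undifferentiated list, was at 10.8 and 11.3 and at 32.5 and 31.4 (1.45, adjusted p = 0.000314). Stra8, a retinoic acid target, was at 40.5 and 35.6 and at 63.8 and 55.8 (0.64, adjusted p = 0.01, and 0.0758 without week 2 replicate 2 and 0.0702 without GS cells replicate 1). Others of the stage were lower. Dmrtb1, which controls the switch from mitosis to meiosis, was at 5.57 and 6.52 and at 1.69 and 1.76 (-1.37, adjusted p = 0.000396), and the X-linked homeobox gene Esx1 was at 4.90 and 5.85 and at 1.88 and 1.94 (-1.13, adjusted p = 0.00113). In all, 5 of the 16 tested differentiation genes were higher (31.2%, against 12.4% of all genes) and 6 lower (37.5%, against 10.9%). These were 2 to 5 and 4 with any 1 library left out, and the median was 0.07.

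Among 30 meiotic genes 5 were higher (16.7%) and 3 lower (10%), near the 12.4% and 10.9% of all genes, at a median of 0.03. With any 1 library left out 2 to 5 were higher and 0 to 1 lower, and 0 were lower with no filter and 1 with a replicate block. Spo11, which makes the breaks of meiotic recombination, was low, at FPKM 2.05 and 2.90 at week 2 and at 7.35 and 6.91 in GS cells (1.24 ± 0.19, adjusted p = 0.00299). The meiotic cohesin subunit Rad21l was at 10.9 and 10.7 and at 22.4 and 23.9 (1.04, adjusted p = 0.00154). Of 24 spermatid genes, 9 passed the filter and 7 were listed at 0 in all 4 libraries, Prm1 among them. In the piRNA pathway, which silences transposons in germ cells, 6 of 20 genes were higher (30%, against 12.4% of all genes) and 0 lower, and the median was 0.26. With any 1 library left out 2 to 3 were higher. Gpat2 (54.5 and 57.0, then 92.0 and 84.8; 0.66, adjusted p = 0.00105) and Gtsf1 (80.2 and 80.6, then 114 and 105; 0.44, adjusted p = 0.0051) kept their call with each library left out in turn. In pluripotency genes 6 of 17 were higher (35.3%, against 12.4% of all genes) and 2 lower (11.8%, against 10.9%). These were 3 to 4 and 0 to 1 with any 1 library left out. Of the 6 higher genes 2 lie on chromosome 16. Tbx3 led the higher genes at 2.37 and 1.98, then 7.86 and 8.47 (1.53, adjusted p = 0.00114), while Nanog was at or under 0.0719 in all 4 libraries.

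Genes of the interferon response, which cells switch on against viruses, were often higher in GS cells. Of 52 listed, 38 passed the filter, and of these 15 were higher (39.5%, against 12.4% of all genes) and 3 lower (7.89%, against 10.9%), with a median of 0.38. When any 1 of the 4 libraries was left out, 9 to 12 were higher and 0 to 1 lower. Their summed FPKM was 647 and 637 at week 2, against 1027 and 948 in GS cells. The ubiquitin-like modifier Isg15 was at FPKM 6.98 and 6.97 and at 20.01 and 16.8, a log2 difference of 1.28 ± 0.15 (adjusted p = 0.000925). Irf8, a transcription factor of the interferon family known from myeloid cells, was at 6.70 and 5.44 and at 24.6 and 29.9 (2.00, adjusted p = 0.000533). The membrane proteins Ifitm3 (41.1 and 39.1, then 107 and 96.1) and Ifitm1 (33.7 and 30.5, then 75.03 and 68.2) also lay apart, although their family has close copies between which reads can be split. Ifit1 (0.263 and 0.212, then 0.329 and 0.108) and Ifit3 (0.0418 and 0.0482, then 0.0922 and 0.103), interferon-induced genes, were near 0 in both groups and did not pass the filter. Not all regulators of the response followed. Irf7, its amplifier, was at 2.42 and 1.52 and at 0.152 and 0.0374 (-1.43, adjusted p = 0.00542). Irf7 reached FPKM 1 at week 2 alone, and 1 of the 15 higher genes reached it in GS cells alone. The filter favours these calls.

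The promoter of Isg15 is shown because the gene is a standard member of the response and carries the letters that interferon-regulated factors are known to bind. The 250 bases before its RefSeq start (GRCm38.p6, chr4:156200819-156201068, minus strand) are given 5′ to 3′, with every run of GAAA, any 2 bases and GAAA, on either strand, in capitals.
Isg15: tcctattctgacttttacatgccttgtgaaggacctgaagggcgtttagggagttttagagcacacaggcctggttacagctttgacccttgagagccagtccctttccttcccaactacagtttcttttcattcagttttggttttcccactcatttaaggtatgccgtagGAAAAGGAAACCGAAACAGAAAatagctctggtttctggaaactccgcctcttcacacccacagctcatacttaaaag
The capitals hold 3 overlapping matches. RefSeq promoters were found for 10 of the 15 higher interferon genes, and 4 of them (40%) held this pair of GAAA within 250 bases, as did 9 of 16 members that were not called (56.2%). Over all genes of the promoter table the share was 3.46% (936 of 27025). The share in the higher members was thus below that in the uncalled members. A match is a description of the sequence and shows no binding.

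A list of sensors of cytosolic nucleic acid, drawn up after Zbp1, Tmem173 and Aim2 had been seen, had 7 of 21 genes higher (33.3%, against 12.4% of all genes) and 1 lower, with a median of 0.13. As those 3 genes prompted the list, its count only describes (4 to 6 and 0 to 2 with any 1 library left out). Beside those 3 genes the higher members were Eif2ak2 (PKR), the exonuclease Trex1, the necroptosis effector Mlkl and the RNA editor Adar, with log2 differences of 0.89, 0.93, 0.90 and 0.44. The call was lost without week 2 replicate 1 and without GS cells replicate 1 for Eif2ak2 (adjusted p = 0.0576 and 0.0565) and Trex1 (0.11 and 0.0979, and 0.0582 without GS cells replicate 2), and with any 1 library left out for Adar (0.114 to 0.142). The sensor of double-stranded RNA Ifih1 (0.26), the kinase Tbk1 (0.10) and the adaptor Mavs (-0.14) were not called.

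Cd274 encodes PD-L1, the ligand that restrains T cells and the subject of the study's title. It was at FPKM 17.8 and 16.5 at week 2 and at 26.6 and 26.6 in GS cells, a log2 difference of 0.61 ± 0.10 (adjusted p = 0.00421), with no overlap between groups (chr19:29367455-29388095, plus strand). Cd276, a related ligand, was at 31.3 and 37.5 and at 63.8 and 52.3 (0.74, adjusted p = 0.00619, and 0.0515 without week 2 replicate 1). Of 12 ligands tested 2 were higher and 2 lower (16.7% each, near the 12.4% and 10.9% of all genes). With any 1 library left out 1 to 2 were higher and 0 to 1 lower, 5 were higher under quantile normalization, and 0 were lower with no filter or with the 4 libraries alone in the fit. The lower ligands were Cd200 and Lgals9, whose adjusted p of 0.0343 and 0.0321 reached 0.198 and 0.188 without week 2 replicate 2. Of 28 regulators of PD-L1 tested 6 were higher (21.4%, against 12.4% of all genes) and 4 lower (14.3%, against 10.9%), with a median of -0.08. With any 1 library left out 3 to 4 were higher and 2 to 4 lower. Nfkb1 was lower, at 15.6 and 16.2 and then 7.70 and 7.12 (-1.01, adjusted p = 0.0020). The chains of the interferon gamma receptor, which feed into PD-L1 expression, were both higher. Ifngr1 was at 15.1 and 14.04 and then 24.96 and 26.9 (0.79, adjusted p = 0.00179). Ifngr2, on chromosome 16, was at 21.3 and 21.5 and then 47.0 and 37.4 (0.94, adjusted p = 0.00203). In MHC class I presentation 6 of 26 genes were higher (23.1%, against 12.4% of all genes) and 0 lower, with a median of 0.27 (2 to 6 higher with any 1 library left out). They included the immunoproteasome subunit Psmb10, at 149 and 160 and at 269 and 228 (0.68, adjusted p = 0.00287). B2m, the light chain, was at 86.1 and 81.7 and at 103 and 91.7 (0.21, adjusted p = 0.22), and H2-K1 and H2-D1, whose values are uncertain because of close copies and strain alleles, differed by 0.07 and -0.20 on the log2 scale and were not called; H2-K1 was at -0.03 without GS cells replicate 1.

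Macrophage genes were often lower in GS cells. Of 20 listed genes 11 passed the filter, of which 6 were lower and 1 higher. Of the 6 lower genes 4 reached FPKM 1 at week 2 alone, so the filter itself favours lower genes here and the count is not set against the share of all genes. Between 2 and 5 were lower with any 1 of the 4 libraries left out (2 without either week 2 library), and 1 to 2 higher. Their summed FPKM was 96.2 and 90.5 at week 2, against 39.7 and 40.1 in GS cells. Lyz2 alone gave 65.9 and 61.2 of the sums at week 2 and 3.36 and 1.67 of those in GS cells. The fall of the sum was thus mainly that of Lyz2. The other listed genes together were not lower in GS cells, but they include Cd68, which was higher there. Without Lyz2 and Cd68, the remaining listed genes together were lower in GS cells. The complement gene C1qa was at 1.85 and 1.86 and at 0.226 and 0 (-1.37, adjusted p = 0.00327). The lysosomal Cd68, which other cells also express, was the exception at 11.01 and 10.9 and at 26.4 and 25.5 (1.17, adjusted p = 0.00348). Defining genes of macrophages were near 0 already at week 2, with Csf1r at 0.211 and 0.263 and Adgre1 at 0.452 and 0.985, and lower still in GS cells (Csf1r 0.0388 and 0.0290, Adgre1 0.146 and 0.0742). In bulk libraries fewer cells of a type and less RNA per cell cannot be told apart.

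Among 28 acute phase, chemokine and cytokine genes 9 were lower in GS cells (32.1%, against 10.9%), 2 were higher and 17 were not called, with a median of -0.20. With any 1 library left out 4 to 6 were lower and 2 to 3 higher. Cxcl12, the chemokine that holds stem cells in their niche, was at FPKM 38.8 and 37.6 at week 2 and at 7.44 and 9.20 in GS cells (-2.08 ± 0.20, adjusted p = 0.000495). Ccl7 was at 48.3 and 47.5 and at 10.7 and 12.4 (-1.97, adjusted p = 0.000355), and Cxcl1 at 60.4 and 70.6 and at 23.96 and 27.5 (-1.31, adjusted p = 0.00649). The acute phase protein Saa3 was abundant in all 4 libraries, at 473 and 479 and at 240 and 202 (-1.11, adjusted p = 0.00638, and 0.0503 without GS cells replicate 2). The cytokine Lif went up from 2.26 and 3.29 to 8.99 and 8.52 (1.38, adjusted p = 0.000784). Of 29 fibroblast genes 2 were higher (6.9%) and 3 lower (10.3%), shares that do not exceed those of all genes. These were 0 to 1 of each with any 1 library left out, and 7 were lower when the 4 compared libraries alone were fitted. The fibroblast list had a summed FPKM of 1477 and 1523 at week 2, against 1368 and 1312 in GS cells. These sums move little beside those of the macrophage genes, where the fall of Lyz2 was partly offset by the rise of Cd68. The part of either cell type in the chemokine values was not tested. Of 15 listed endothelial genes 8 passed the filter and 3 of these were higher (37.5%, against 12.4% of all genes), 1 of them on chromosome 16. The endothelial markers Tek (0.341 and 0.271, then 0.421 and 0.23) and Kdr (0.834 and 0.598, then 0.909 and 1.075) did not pass. Of 9 Sertoli genes 2 were higher (22.2%) and 1 lower (11.1%). Both lists rested on few genes. Vwf was at 0.407 and 0.946 and then 3.47 and 4.04. It reached FPKM 1 in GS cells alone, so the filter favours its call. Sox9 was at 1.69 and 1.53 and then 4.197 and 3.81.

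**Figure D3:**
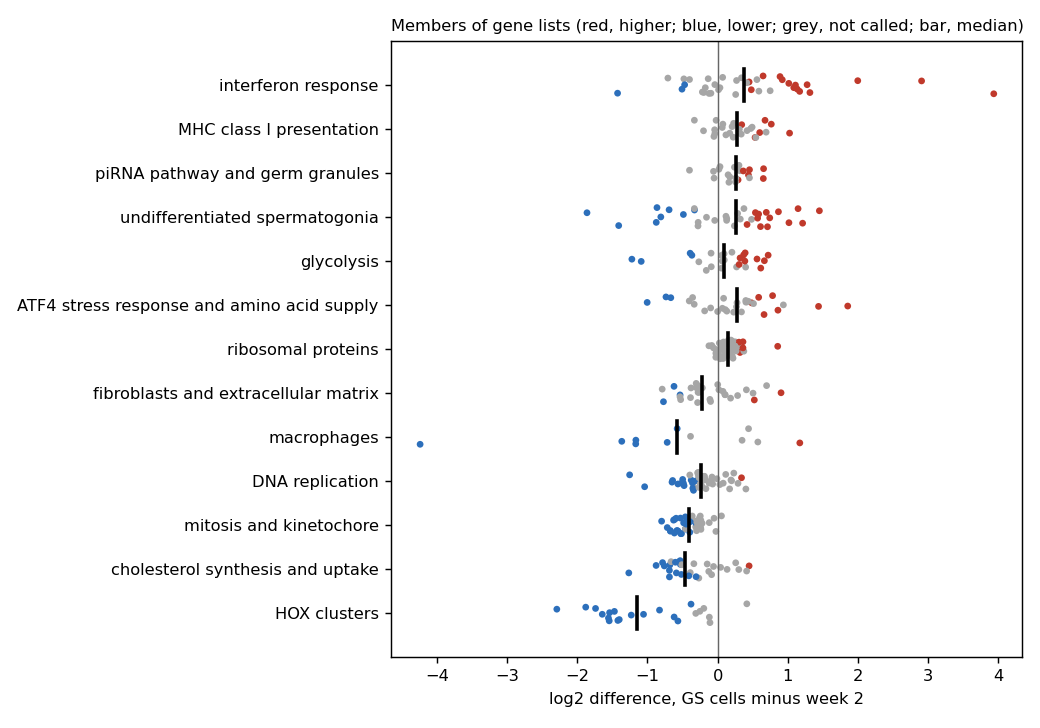
Log2 difference of GS cells minus week 2 (x axis) for the tested members of 13 gene lists, with red for genes called higher, blue for called lower, grey for uncalled and a black bar for the median of the list; vertical scatter within a row has no meaning. The mitosis list lies almost wholly below 0 at a median of -0.41 and the cholesterol list has a median of -0.46, while the interferon list reaches from -1.43 to 3.94 around 0.38.

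Many genes of cell division were lower in GS cells, most of them by less than 2-fold. Of 42 genes of mitosis and the kinetochore, 23 were lower (54.8%, against 10.9% of all genes), 0 were higher and 19 were not called, 41 lay below 0, and the median was -0.41. With any 1 of the 4 libraries left out, 11 (without week 2 replicate 2) to 16 were lower and 0 higher. The summed FPKM was 3275 and 3273 at week 2, against 2466 and 2429 in GS cells. Foxm1, the transcription factor of the G2 phase, was at FPKM 80.7 and 74.0 and at 44.6 and 43.4 (-0.80 ± 0.085, adjusted p = 0.000701). The proliferation antigen Mki67 was at 63.8 and 62.7 and at 36.1 and 42.7 (-0.67, adjusted p = 0.00326), the topoisomerase Top2a at 211 and 219 and at 142 and 136 (-0.63, adjusted p = 0.00437), and the kinase Cdk1 at 97.7 and 111 and at 74.3 and 64.9 (-0.58, adjusted p = 0.00462). In each the GS cell libraries were both below the week 2 libraries. Among 48 genes of DNA replication 16 were lower (33.3%), 1 was higher and 31 were not called, with a median of -0.24, and 5 to 8 were lower with any 1 library left out. Ribonucleotide reductase M2 (Rrm2) was at 49.0 and 45.2 and at 21.6 and 23.2 (-1.04, adjusted p = 0.00151).

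The promoters of Mki67 and Top2a are shown because mitotic genes share 2 short elements in their promoters, the CCAAT box and the TTTGAA core of the cell cycle homology region. The 250 bases before the RefSeq starts (GRCm38.p6) are given 5′ to 3′, with CCAAT and TTTGAA on either strand in capitals. Mki67 is at chr7:135716380-135716629 and Top2a at chr11:99024190-99024439, both on the minus strand.
Mki67: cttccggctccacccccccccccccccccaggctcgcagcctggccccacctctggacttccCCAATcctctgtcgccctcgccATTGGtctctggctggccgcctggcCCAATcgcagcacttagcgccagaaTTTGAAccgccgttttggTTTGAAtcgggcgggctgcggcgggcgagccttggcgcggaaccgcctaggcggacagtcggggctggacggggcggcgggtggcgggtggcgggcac
Top2a: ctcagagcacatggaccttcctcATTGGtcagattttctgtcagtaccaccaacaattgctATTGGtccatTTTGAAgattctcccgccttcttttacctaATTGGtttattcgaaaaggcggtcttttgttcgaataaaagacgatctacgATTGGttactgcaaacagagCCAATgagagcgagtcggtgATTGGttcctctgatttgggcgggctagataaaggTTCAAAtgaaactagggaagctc
Mki67 held 3 CCAAT and 2 TTTGAA matches, and Top2a held 6 and 2. Of 19 lower mitosis genes with a RefSeq promoter 14 (73.7%) held CCAAT, as did 11 of 16 that were not called (68.8%) and 37.5% of all genes. TTTGAA was in 8 of the 19 (42.1%), in 5 of the 16 (31.2%) and in 18.3% of all genes. For CCAAT the lower and the uncalled members had nearly the same share.

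Among 36 cyclins, kinases and their inhibitors 12 were lower (33.3%, against 10.9% of all genes) and 4 higher (11.1%, against 12.4%), with a median of -0.25. With any 1 library left out 9 to 10 were lower and 2 higher. Of the 12 lower genes 1 reached FPKM 1 at week 2 alone, so the filter favours its call. Inhibitors went both ways. Cdkn1b (p27), which holds cells before S phase (chr6:134920401-134925513, plus strand), was at FPKM 7.65 and 7.72 at week 2 and at 1.91 and 1.72 in GS cells, a log2 difference of -1.63 ± 0.16 (adjusted p = 0.000533). Cdkn1c (p57), an imprinted relative, was at 18.4 and 18.3 and at 49.2 and 45.4 (1.32, adjusted p = 0.000959). The inhibitors Cdkn1a (63.5 and 63.2, then 54.4 and 50.2, adjusted p = 0.149) and Cdkn2a (65.0 and 71.0, then 59.3 and 52.7, adjusted p = 0.0793) were not called. Cdk6, a kinase of the G1 phase, was at 4.34 and 4.13 and at 11.9 and 10.2 (1.19, adjusted p = 0.000698), and the cyclins E, Ccne1 and Ccne2, had log2 differences of -0.92 and -0.99, of which the call for Ccne1 was lost without week 2 replicate 1 (adjusted p = 0.0627) and without GS cells replicate 1 (0.0606). Of 31 targets of p53, 7 were lower (22.6%, against 10.9% of all genes) and 1 higher. With any 1 library left out 1 to 4 were lower and 0 higher, and 11 were lower at a common FPKM sum. The p53 target Phlda3 was at 17.3 and 10.9 and then at 5.79 and 6.05 (-1.09, adjusted p = 0.00754). Trp53 itself was at 84.7 and 82.4 and at 70.0 and 68.4, with an adjusted p of 0.0793, and the telomerase subunit Tert was at 8.72 and 10.0 and at 9.03 and 6.74, where the groups overlapped.

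HOX genes, the transcription factors that record position along the body axis, included lower genes in 3 clusters. The list was drawn up after the data had been seen, so its counts describe and do not test. Of 39 listed, 22 passed the filter, and of these 16 were lower in GS cells and 0 higher. Of the 16 lower genes 5 reached FPKM 1 at week 2 alone, so the filter favours lower genes here too, and the count is not set against the share of all genes. With any 1 of the 4 libraries left out, 8 (without week 2 replicate 2) to 14 were lower. In the HOXC cluster on chromosome 15, Hoxc12 was at FPKM 12.5 and 13.5 at week 2 and at 2.00 and 1.73 in GS cells (-2.29 ± 0.15, adjusted p = 0.000114). Hoxc13 was at 9.02 and 8.69 and at 1.43 and 1.95 (-1.88, adjusted p = 0.000355), and Hoxc10 at 12.4 and 11.5 and at 3.39 and 2.42 (-1.74, adjusted p = 0.00033). Both GS cell libraries were low for each. Hoxa9, Hoxa10 and Hoxa11 on chromosome 6 had log2 differences of -1.54, -1.56 and -1.23 at low levels. The HOXB cluster on chromosome 11 split: Hoxb9 was at 49.8 and 50.8 and at 17.5 and 19.4 (-1.40, adjusted p = 0.000322), while Hoxb2, the exception above 0, was at 15.7 and 14.7 and at 21.2 and 20.1 (0.42, adjusted p = 0.0811).

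**Figure D4:**
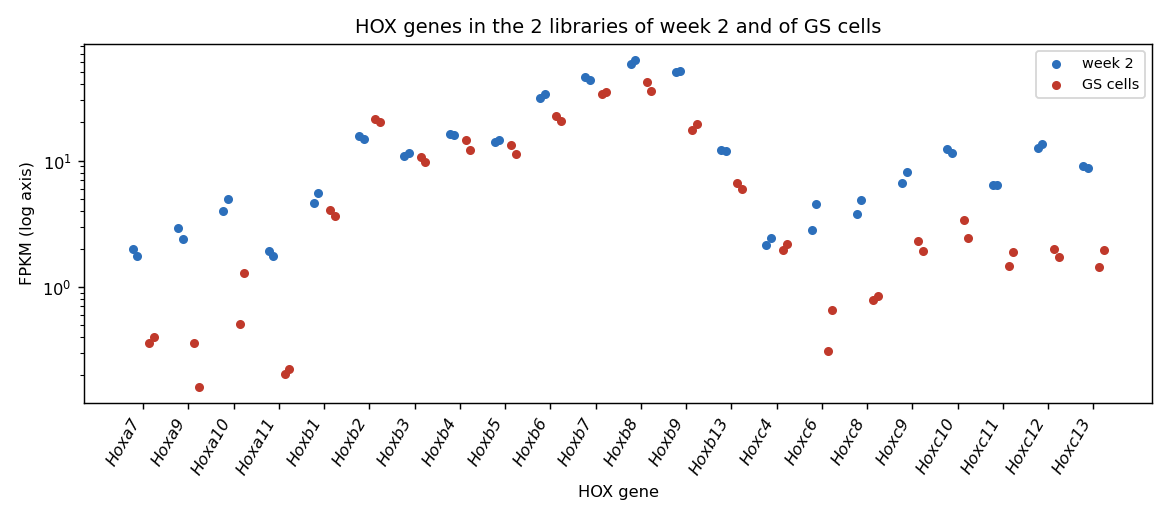
FPKM on a log axis of the 22 tested HOX genes, in cluster order, in the 2 week 2 libraries (blue) and the 2 GS cell libraries (red). Blue points lie above red ones in every gene of the HOXA and HOXC clusters except Hoxc4, where the groups overlap, and the low-numbered genes of the HOXB cluster lie close together.

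Polycomb and Trithorax genes, which keep HOX clusters off or on, were called in 4 of 38 cases upward and 4 downward, near the background in both directions (1 to 2 of each with any 1 library left out). Rnf2 (RING1B), the ubiquitin ligase of Polycomb complex 1, was at FPKM 49.6 and 44.1 at week 2 and at 28.5 and 21.3 in GS cells (-0.90 ± 0.16, adjusted p = 0.00607). Mtf2, an accessory subunit of Polycomb complex 2, was at 105 and 109 and at 166 and 173 (0.66, adjusted p = 0.00612). The DNA methyltransferases Dnmt1 (-0.14), Dnmt3a (-0.34) and Dnmt3b (-0.25, all log2) were not called.

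Among 28 WNT genes 5 were higher (17.9%, against 12.4% of all genes) and 7 lower (25%, against 10.9%), or 3 and 5 to 6 with any 1 library left out. The antagonist Sfrp2 was at FPKM 28.3 and 31.0 at week 2 and at 7.53 and 5.69 in GS cells (-2.02 ± 0.17, adjusted p = 0.000299), and Sfrp1 was at 10.0 and 8.93 and at 3.75 and 3.55 (-1.17, adjusted p = 0.00121). Shisa6, an inhibitor of WNT signalling in undifferentiated spermatogonia, was at 6.39 and 6.71 and at 2.24 and 0.270 (-1.90, adjusted p = 0.00607), and the WNT target Sp5 was at 11.7 and 11.8 and at 4.40 and 3.52 (-1.37, adjusted p = 0.000859). The ligand Wnt7b (0.419 and 0.447, then 2.50 and 1.90) and the receptor Fzd2 (6.45 and 6.40, then 13.4 and 13.9) were higher. Wnt7b reached FPKM 1 in GS cells alone, so the filter favours its call. Among 32 TGF-beta and BMP genes 7 were higher and 7 lower (21.9% each, against 12.4% and 10.9% of all genes). Of the lower genes 2 reached FPKM 1 at week 2 alone, so the filter favours their calls. The inhibitory Smad6 led the lower genes at 17.6 and 17.3, then 7.52 and 5.12 (-1.35, adjusted p = 0.00293). With any 1 library left out 2 to 3 were higher and 3 to 6 lower.

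In metabolism, the cholesterol pathway was the list with most lower genes. Of 30 genes of synthesis and uptake 15 were lower (50%, against 10.9%) and 1 higher, with a median of -0.46, and with any 1 library left out 6 to 10 were lower and 0 higher. Cyp51, which demethylates lanosterol, was at FPKM 86.9 and 92.0 at week 2 and at 39.6 and 33.8 in GS cells (-1.27 ± 0.13, adjusted p = 0.000552). Sqle, which opens the sterol branch, was at 77.9 and 79.5 and at 47.4 and 50.02 (-0.68, adjusted p = 0.00106). Both GS cell libraries were below both week 2 libraries for these genes. The activator Srebf2 differed by -0.13 (log2) and was not called.

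The ATF4 stress response and amino acid supply had 7 of 30 genes higher (23.3%, against 12.4% of all genes) and 3 lower (10%, against 10.9%), with a median of 0.27. These were 5 to 8 and 0 to 1 with any 1 library left out. Of the 3 lower genes 1 reached FPKM 1 at week 2 alone, so the filter favours its call. The glutathione-degrading Chac1 was at FPKM 1.17 and 1.45 at week 2 and at 8.13 and 6.62 in GS cells (1.85 ± 0.15, adjusted p = 0.000262). The pseudokinase Trib3 was at 3.08 and 3.46 and at 10.9 and 10.3 (1.44, adjusted p = 0.0016). Phgdh, the entry enzyme of serine synthesis, was at 85.3 and 88.6 and at 170 and 148 (0.86, adjusted p = 0.000898), and Atf4 itself was at 101 and 106 and at 186 and 171 (0.78, adjusted p = 0.000552). In glycolysis 9 of 25 genes were higher (36%, against 12.4% of all genes) and 4 lower (16%, against 10.9%) at a median of 0.09. These were 2 to 4 and 1 to 2 with any 1 library left out. The enolases parted: Eno1 was at 236 and 226 and at 390 and 347 (0.67, adjusted p = 0.00114), and Eno2 at 6.75 and 5.46 and at 1.80 and 2.96 (-1.09, adjusted p = 0.00864, and 0.0615 and 0.0576 without week 2 replicate 1 and GS cells replicate 1). The glucose transporter Slc2a3 was at 31.9 and 43.9 and at 18.04 and 13.3 (-1.22, adjusted p = 0.00365). In oxidative phosphorylation 5 of 43 genes were higher and 1 lower, and the higher share of 11.6% was near the background (1 to 4 higher with any 1 library left out). Of the 5, Atp5o and Atp5j lie on chromosome 16, and Atp5j lost its call without week 2 replicate 1, week 2 replicate 2 and GS cells replicate 1 (adjusted p = 0.117, 0.0814 and 0.101).

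Genes on chromosome 16 were higher in GS cells as a body, a view by chromosome that was taken after the data had been seen. Of 405 tested, 219 were higher (54.1%, against 12.4% of all genes), 7 were lower, and 86.7% lay above 0. The median log2 difference was 0.499 (quartiles 0.24 and 0.693). Over the other 18 autosomes the medians ran from -0.054 to 0.077 and the higher share from 6.59% to 16%. Each GS cell library set against each week 2 library gave a chromosome 16 median between 0.479 and 0.502. The median ratio of FPKM was 1.48 over the 293 genes of this chromosome with a mean of FPKM 10 or more. The share of the summed FPKM that came from chromosome 16 was 3.82% and 3.85% in GS cells, against 2.68% and 2.7% in the week 2 libraries and 2.69% and 2.7% in the week 3 libraries. Against the week 2 mean, the chromosome 16 medians were -0.013 and 0.024 in the week 3 libraries, -0.128 and -0.124 in those of week 1 and -0.093 and -0.126 in those of week 0.

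The difference ran along the whole chromosome. In windows of 10 Mb the median was between 0.40 and 0.65, with 75.9% to 94.7% of genes above 0 in each, although 2 windows held 8 genes. Genes of this chromosome made up 13.9% of all that were higher, and 1357 higher genes lay elsewhere. When the fit was repeated without chromosome 16 genes, 1325 genes were higher and 1343 lower. Several genes named above lie there (Fbxo40, Etv5, Cd200, Ifngr2, Atp5o and Atp5j), as do the pluripotency factor Dppa4 (25.6 and 29.7, then 66.1 and 55.6 FPKM; 1.11, adjusted p = 0.000897), the ETS factor Erg (23.1 and 21.3, then 42.2 and 43.6; 0.92, adjusted p = 0.000897) and the kinase Gsk3b (42.3 and 34.7, then 77.8 and 88.1; 1.09, adjusted p = 0.000552). Pluripotency had 2 of its 6 higher genes on chromosome 16, the regulators of PD-L1 2 of 6 and oxidative phosphorylation 2 of 5. Epithelial junctions had 2 of 8 there, the endothelial list 1 of 3 and the interferon response 2 of 15. The mitosis, cholesterol and HOX lists had no tested gene there. Copy number was not measured in these data, and a cause for the difference was not tested.

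**Figure D5:**
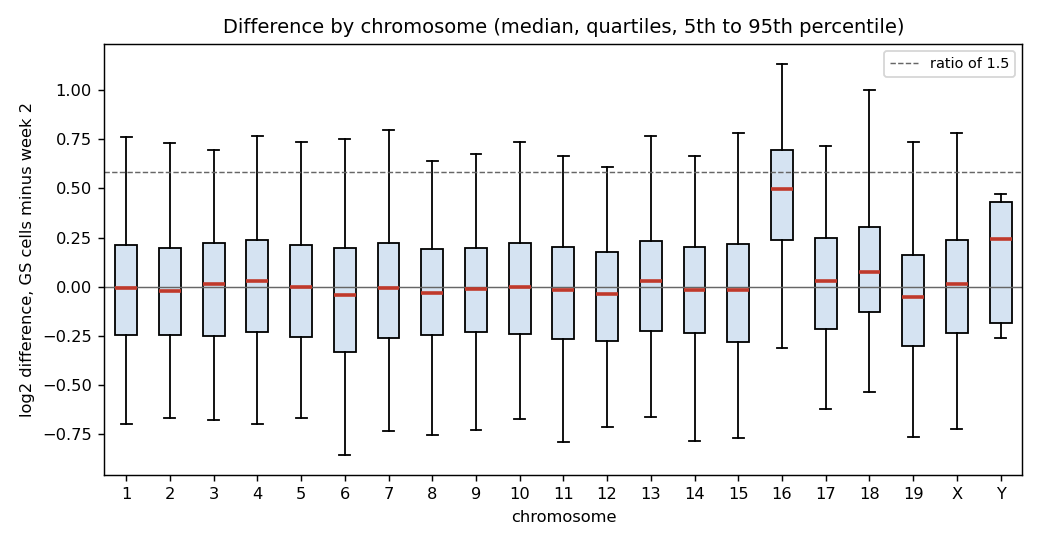
Log2 difference of GS cells minus week 2 (y axis) of the genes tested on each chromosome (x axis), with boxes for the quartiles, a red bar for the median and whiskers from the 5th to the 95th percentile; the dashed line marks a ratio of 1.5. The box of chromosome 16 lies from 0.24 to 0.693, while the medians of the other autosomes lie between -0.054 and 0.077.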

How the data were processed

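RNA-seq of 10 mouse libraries (5 groups of 2) was analysed from the matrix of normalized FPKM values that the authors deposited. Per the submitters' processing notes, HISAT2 2.1.0 and Bowtie2 2.3.4.1, Cufflinks 2.2.1 with Cuffdiff, and cutadapt 1.16 and bcl2fastq 2.17.1.14 were used with the build mm10, in roles that the notes do not give. Not given in the sources used here were the annotation and how values were normalized. Any error in aligning reads or splitting them between gene copies carries over. The matrix columns were named by group and replicate, and 0 per-sample columns were left unused. Of 21969 identifiers 21951 were found in GENCODE M21, 20936 with the same version, 27 symbols were restored from dates, and 19 symbols stood on more than 1 row.

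Depth was estimated from steps of low FPKM values in 2268 genes with 1 transcript of at least 1500 nucleotides. Between 94.85% and 98.48% of these values were whole within 0.15 of a read. Lengths of other genes rest on an unnamed annotation, so no count model was run.

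Genes that reached FPKM 1 in 2 or more of the 4 libraries were fitted as log2(FPKM + 1) with limma 3.58.1 in R 4.3.3. All 10 libraries entered the fit to share the spread (5 residual degrees of freedom), with an intensity trend, two-sided tests and Benjamini-Hochberg adjustment over the 12709 genes. The pseudocount of 1 understates changes of low genes. The model was tested on simulated data.

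The text names the 12 largest called rises and falls without overlap and with FPKM 5 or more in the higher group. It also names up to 4 called members per list without overlap, the 5 most abundant called genes, a set of fixed genes, and members of described lists by value. For genes chosen without overlap, the gap between the groups is part of the choice and no result. Members and lists were chosen with earlier results of these data known. The 2 lists of HOX and nucleic acid sensing genes and the view by chromosome were added after the data had been seen. Some members of the lists are not reported here. Promoters came from RefSeq (GRCm38.p6). Other settings tried were the 4 libraries alone, a pseudocount of 0.1, no filter, a filter over 10 libraries, quantile normalization, a common FPKM sum, a replicate block, each library left out, and no chromosome 16 genes.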

Additional observations from a re-analysis of the deposited data

How the results depend on the processing

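Outside the settings that leave out a library, the counts of called genes over all chromosomes and on chromosome 16 stayed within 1.5 times in 53 cases and moved in 1. That was the pseudocount of 0.1, under which 404 genes were lower by 2-fold or more instead of 231. With any 1 of the 4 libraries left out, which leaves fewer samples to estimate the spread, 1159 to 1384 genes were called, 681 to 796 of them higher and 439 to 687 lower, while 219 to 308 were higher and 163 to 220 lower by 2-fold or more. Counts within gene lists stayed within 1.5 times in 773 cases outside these settings and moved in 75. On chromosome 16 the higher genes then numbered 127 to 140 and the lower 1 to 4. Of 204 called named genes, 174 kept their call in every alternative other than leaving out a library and 119 in all. The value of Dazl, never called, changed sign without week 2 replicate 1 (0.02, adjusted p = 0.957) and without GS cells replicate 1 (0.14, adjusted p = 0.548), as did H2-K1 without GS cells replicate 1 (-0.03, adjusted p = 0.878). Dazl was at -0.16 without GS cells replicate 2, and H2-K1 was at 0.18 there.

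A replicate block gave 2734 called genes, 1467 higher and 1267 lower. Same-numbered libraries correlated between -0.0673 and 0.0878 in their deviations, so no shared deviation by replicate number was seen. Whether the numbers pair animals or cultures is not known from the labels. At least 26.9 reads were estimated to lie behind FPKM 1 at a length of 2200 nucleotides. With 2 libraries a group, differences of genes near FPKM 1 are the least certain.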

Other observations

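Imprinted genes, which are expressed from 1 parental copy, had called members in both directions. Of 34 tested, 5 were higher in GS cells (14.7%, against 12.4%) and 6 lower (17.6%, against 10.9%), with 2 to 3 of each when any 1 library was left out. Phlda2, which limits placental growth, was at FPKM 9.23 and 7.75 at week 2 and at 31.7 and 22.9 in GS cells (1.56, adjusted p = 0.00458). The retrotransposon-derived Peg10 was at 11.7 and 11.8 and at 4.24 and 4.51 (-1.24, adjusted p = 0.000387). Among integrins and tetraspanins 10 of 33 were higher (30.3%, against 12.4% of all genes) and 2 lower (6.06%, against 10.9%). These were 7 to 8 and 1 to 2 with any 1 library left out. The laminin receptor subunit Itga3 was at 17.0 and 20.7 and at 44.5 and 46.7 (1.23, adjusted p = 0.00237), and Itga9 at 6.32 and 7.39 and at 14.8 and 16.2 (1.07, adjusted p = 0.0011). In epithelial junctions 8 of 33 were higher (24.2%, against 12.4% of all genes) and 6 lower (18.2%, against 10.9%). These were 2 to 4 and 3 to 4 with any 1 library left out. P-cadherin (Cdh3) was at 14.3 and 13.7 and at 5.91 and 5.10 (-1.21, adjusted p = 0.000639).

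Of the 5 most abundant called genes 4 encode ribosomal proteins. Rps24 was at FPKM 2026 and 1948 at week 2 and at 2780 and 2344 in GS cells (0.36, adjusted p = 0.0288). The ribosomal list had 5 of 51 genes higher and 0 lower, a called share of 9.8% near the background. However, 45 of the 51 lay above 0, with a median of 0.15 against 0.002 for all genes. The summed FPKM of the list was 41740 and 41618 at week 2. In GS cells it was 49398 in replicate 1 and 43257 in replicate 2, so the rise was uneven between replicates. The adjusted p of Rps24 was 0.102, 0.155 and 0.126 without week 2 replicate 1, week 2 replicate 2 and GS cells replicate 1. Glutathione transferase Gstm2 was at 5.24 and 4.65 and at 1.68 and 0.923 (-1.39, adjusted p = 0.00552), although this family has close copies, and thioredoxin reductase Txnrd1 was at 113 and 109 and at 191 and 186 (0.76, adjusted p = 0.000533).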
